A study of Mus musculus with 5 samples.

Results

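Sensory neurons of the dorsal root ganglion arise from the neural crest and are specified by a small set of transcription factors. The genes described here are 8 of these factors, the LIM-homeodomain genes Isl1 and Isl2, the POU-homeodomain genes Pou4f1, Pou4f2 and Pou4f3 (also called Brn3a, Brn3b and Brn3c), the Runt-domain genes Runx1 and Runx3, and the homeodomain gene Tlx3. They were chosen by name, and isoforms were assigned to them by gene symbol after the suffix of an assembled isoform was removed. The isoform table listed 6 of the 8 genes with 13 isoforms, out of 15154 genes with 50356 isoforms in all. Pou4f2 and Runx3 had no row and were not analysed here. Of the 13 isoforms, 7 were reference transcripts and 6 had been assembled from the reads (symbols ending in _j and a number).

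Neurons of the dorsal root ganglia (DRG) were compared with cerebellar granular neurons (CGNs). Both came from C57bl/6j mice at postnatal day 8, with no genetic change or test treatment in either group, and were grown on poly-d-lysine and laminin. The 3 DRG cultures were kept for 16 days with nerve growth factor and with FuDR, an inhibitor of dividing cells such as glia, and each pooled the ganglia of a pair of mice. The 2 CGN cultures came from 1 mouse each and were kept for 16 hours, so time in culture and cell type cannot be told apart. The study describes its DRG cultures as mostly but not wholly neuronal, and each value below is that of a whole culture. Levels are FPKM, fragments per kilobase of exon scaled to sequencing depth, which the authors estimated for each library. The table gives no read counts, and since the depth of an estimate is thus unknown, the authors' 95% confidence bounds are given for isoforms. An FPKM listed at 0 was not read as absence, because Rps13, a ribosomal protein gene, was listed at 0 in all 5 libraries. All p-values rest on the spread among 5 cultures. Where a CGN library is left out, the other one stands alone, the spread comes from the DRG libraries and the lone CGN library is assumed to vary like them.

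Isl1 and Isl2 act early in sensory neurons, where Isl1 works with Pou4f1 to end neurogenic programs and start sensory ones. Pou4f2 and Pou4f3 are best known from retinal ganglion cells and from hair cells of the inner ear. Runx1 directs the development of nociceptors, among them the non-peptidergic class, and Runx3 that of proprioceptors. Tlx3 favours a glutamatergic over a GABAergic transmitter identity in the dorsal spinal cord and acts with Runx1 in nociceptors. Granule neurons of the cerebellum are made through a set led by bHLH and zinc-finger factors such as Neurod1 and Zic1.

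The stretch of genome listed for a gene shows which of its known start sites it covers, and 4 upstream sequences are shown for this reason. They are the 250 bases before the RefSeq start (GRCm38.p6 table, with each sequence found exactly once in mm9), written from 5′ to 3′ on the gene's strand, with capitals marking CpG dinucleotides (CG). Isl1 lies on the minus strand of chromosome 13 (chr13:117099897-117100146, mm9), Tlx3 on the minus strand of chromosome 11 (chr11:33103589-33103838), and Runx1 on the minus strand of chromosome 16 with a proximal (chr16:92697575-92697824) and a distal start (chr16:92826320-92826569).
Isl1: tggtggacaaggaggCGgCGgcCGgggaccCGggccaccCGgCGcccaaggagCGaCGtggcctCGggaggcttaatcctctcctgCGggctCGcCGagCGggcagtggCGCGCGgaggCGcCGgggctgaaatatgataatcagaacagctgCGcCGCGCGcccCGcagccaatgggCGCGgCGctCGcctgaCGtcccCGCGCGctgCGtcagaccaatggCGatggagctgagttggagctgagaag
Tlx3: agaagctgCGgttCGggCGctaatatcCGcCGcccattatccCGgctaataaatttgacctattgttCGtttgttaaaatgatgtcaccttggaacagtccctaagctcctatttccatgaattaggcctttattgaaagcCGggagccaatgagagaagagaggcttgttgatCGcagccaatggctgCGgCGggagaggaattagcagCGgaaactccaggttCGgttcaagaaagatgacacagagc
Runx1 proximal: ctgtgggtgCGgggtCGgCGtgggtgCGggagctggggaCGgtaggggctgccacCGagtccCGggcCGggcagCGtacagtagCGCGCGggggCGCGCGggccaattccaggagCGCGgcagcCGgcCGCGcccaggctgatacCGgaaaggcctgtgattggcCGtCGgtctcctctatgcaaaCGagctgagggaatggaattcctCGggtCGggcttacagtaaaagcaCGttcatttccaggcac
Runx1 distal: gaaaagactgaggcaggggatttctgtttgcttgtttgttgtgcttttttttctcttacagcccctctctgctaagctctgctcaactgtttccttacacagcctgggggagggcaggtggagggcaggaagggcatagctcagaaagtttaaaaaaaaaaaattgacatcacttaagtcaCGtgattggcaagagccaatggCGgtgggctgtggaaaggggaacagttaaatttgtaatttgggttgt
The deposited Isl1 interval began 2 bases upstream of the RefSeq start and the Tlx3 interval 38 bases upstream of it. The Runx1 interval began 11 bases upstream of the proximal start and 128734 bases short of the distal one, so the distal first exon lay outside it. The proximal Runx1 sequence held 27 CpG dinucleotides at 67.6% GC and the distal one 2 at 45.6% GC. Isl1 had 33 CpG dinucleotides and Tlx3 had 13, and the median of 32851 promoters in the table was 6, with a CpG in 92.1% of them. Isl2, on the plus strand of chromosome 9, began 16 bases inside its RefSeq start, whereas the Pou4f1 interval on chromosome 14 (104861894 to 104865495, minus strand) stopped 1721 bases short of the annotated start. Motifs were searched on both strands of the 250 bases. A homeodomain site (TAATTA, in 4.84% of promoters) was found in none of the upstream sequences of Isl1, Isl2, Pou4f1, Runx1 and Tlx3. Nor was the octamer of POU proteins (ATGCAAAT, in 1.6%) or the Runx core in the form TGTGGT (in 14%). Another form of the Runx core, TGCGGT, occurs in the Tlx3 sequence shown and was not searched. Shorter homeodomain sites such as TAAT, which occurs in the Isl1, Tlx3 and distal Runx1 sequences shown, were not searched. E-boxes, the sites of bHLH proteins (CANNTG, in 66.2%), numbered 1 upstream of Isl1, 2 upstream of Pou4f1 and 3 upstream of the distal Runx1 start. A match or its lack describes these letters alone.

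In the DRG cultures 4 of the 6 listed factors, Isl1, Isl2, Pou4f1 and Runx1, rose past the test relative to CGNs, and Pou4f3 and Tlx3 did not pass it. The test was limma on log2(FPKM + 50), applied to the summed isoforms of a gene and to single isoforms, where FPKM reached 50, the study's own limit of reliability, in at least 2 libraries. The threshold was an adjusted p (Benjamini-Hochberg over all 13275 genes) of 0.05. By this rule 28.4% of all genes tested were called higher in DRG neurons and 9.22% lower. None of the members was called lower by limma, nor was any at an unadjusted p of 0.05 (0 of 6). Isl1, Isl2, Pou4f1, Pou4f3 and Runx1 met the filter through DRG libraries alone, so they could not have been called lower. The count called higher and the members' median are therefore set in part by the filter. The median log2 difference (DRG neurons minus CGNs) of the 6 members was 3.42, beside 0.59 for all genes tested. That overall median was -0.26 with totals made equal, -0.02 with median ratio scaling and 0.01 with quantile normalization, while the members' median stayed between 3.07 and 3.20.

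The labels of the cultures were checked on marker genes. All 8 sensory neuron markers were called higher in DRG neurons, with a summed FPKM of 806434 to 1003028 beside 29314 to 47210 in CGNs. Of 9 granule neuron markers listed, 8 were tested and each was called lower in DRG neurons, and 5 (Pax6, Barhl1, Gabra6, Cbln3 and Nhlh1) were listed at 0 in every DRG library. Markers of other cells were present. The 14 listed Schwann and satellite glia markers summed to 92266 to 145315 in DRG and 27576 to 38006 in CGN libraries, and of the 14 tested 8 were called higher in DRG neurons, 2 lower and 4 did not pass. Foxd3 and Dhh were among those at 0 in both CGN libraries, while Gfap (39.6 to 129 FPKM in DRG, 3713 and 5386 in CGN libraries) and Fabp7 (180 to 727 in DRG, 3844 and 11765 in CGN libraries) were lower in DRG neurons. The 10 fibroblast markers summed to 38954 to 81034 in DRG and 2217 to 5426 in CGN libraries. The 10 macrophage and microglia markers summed to 412 to 1513 in DRG and 6186 to 10333 in CGN libraries, with Itgam, Aif1, Cx3cr1, Fcer1g and Cd14 at 0 in every DRG library. Of these, Cd14 was at 0 in both CGN libraries as well, and Aif1 and Itgam were at or near 0 in CGN replicate 2. The 9 listed markers of other cerebellar neurons summed to 4833 to 18998 in DRG and 15801 to 30752 in CGN libraries, with Eomes, Gad1, Gad2 and Slc32a1 at 0 in every DRG library. Of 8 tested, 6 were called lower in DRG neurons, 0 higher, and 2 (Pcp2 and Pcp4) did not pass. Most of the DRG sums came from Pcp4, with 12707, 16591 and 4670 FPKM in DRG replicates 1, 2 and 3. Pcp2 had 5843 FPKM in DRG replicate 1. The part of these cells in the levels of the factors was not tested. In such bulk samples, fewer cells of a type and less RNA per cell cannot be told apart.

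**Figure D1:**
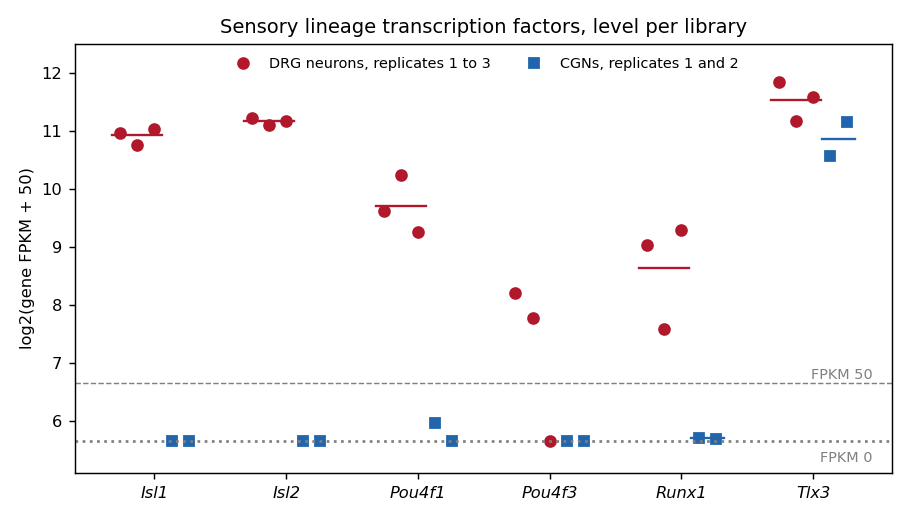
Each point is the level of a gene in 1 library on a log2(FPKM + 50) axis, with DRG neurons as circles and CGNs as squares, and short lines mark group means where no library of the group was listed at 0. Isl1 and Isl2 sit on the FPKM 0 line in both CGN libraries and between 1684 and 2345 FPKM in the DRG libraries, whereas Tlx3 is high in all 5 libraries.

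Among the LIM-homeodomain pair, Isl1 (chromosome 13, 117088501 to 117099898, mm9, up to 6 annotated exons) had an FPKM of 1947, 1684 and 2058 in DRG replicates 1, 2 and 3 (1896 ± 192, SD, n = 3) and was listed at 0 in both CGN libraries. Every DRG library lay well above the CGN libraries, and 62.3 to 66.9% of all listed genes had a lower level in the same DRG library. The difference on the log2(FPKM + 50) scale was 5.28 ± 0.53 (SE, limma, adjusted p = 0.000142). Because the CGN values were 0, the pseudocount sets the size of this difference and no fold is given. Isl2 (chromosome 9, 55388972 to 55395477, up to 6 annotated exons) had 2345, 2143 and 2257 FPKM in the DRG replicates (2248 ± 101, SD, n = 3) and was listed at 0 in both CGN libraries. Isl2 was the steadiest of the 6 factors over the DRG libraries, with a coefficient of variation of 4.51%, beside 10.1% for Isl1. Its difference was 5.52 ± 0.52 (SE, limma, adjusted p = 0.000102).

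The 2 reference isoforms of Isl1 kept nearly the same proportions in each DRG culture. Transcript uc007rye.1 had 1746, 1504 and 1781 FPKM and made up 89.7, 89.3 and 86.5% of the gene. Transcript uc007ryf.1 had 201, 180 and 277 FPKM, with lower confidence bounds of 56.8, 80.1 and 123, so each estimate was above 0. Of 33587 isoforms tested, 9.63% were called higher in DRG neurons, as were 3 of 12 tested isoforms of the factors. Among these was uc007rye.1 (log2 difference 5.11 ± 0.53, SE, limma, adjusted p = 0.00499). The lesser uc007ryf.1 missed the threshold (2.41 ± 0.64, SE, limma, adjusted p = 0.0542). This isoform was called under 7 of 15 other settings, including the 3 other scalings.

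For Isl2 the reference isoform uc009psm.1 had 2160, 1573 and 2239 FPKM and was called higher in DRG neurons (5.33 ± 0.53, SE, limma, adjusted p = 0.00436). The assembled isoform Isl2_j1 had 185, 570 and 17.7 FPKM, and only the estimate in replicate 2 had a lower bound above 0, at 284. Its share of the gene was therefore 26.6% in replicate 2, against 7.91 and 0.783% in replicates 1 and 3. The steady Isl2 sum contained this exchange, since replicate 2 was lowest for the reference isoform and highest for Isl2_j1. Isl2_j1 was not called (2.10 ± 1.0, SE, limma, adjusted p = 0.218).

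Pou4f1, the POU factor that marks most sensory neurons from the time they leave the cell cycle, had 738, 1154 and 561 FPKM in the DRG replicates (818 ± 305, SD, n = 3). The CGN libraries were listed at 12.3 and 0 FPKM, both below the limit of 50. The groups did not overlap, although in plain FPKM the highest DRG library was about as far from the lowest as the lowest was from the CGN libraries. On the log2(FPKM + 50) scale of the test the mean was 9.70 in DRG and 5.80 in CGN libraries. Pou4f1 was called higher in DRG neurons (3.9 ± 0.60, SE, limma, adjusted p = 0.00117).

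All 3 isoforms listed for Pou4f1 were assembled ones, and no reference isoform was listed. Pou4f1_j3 was the main form in every DRG library, with 472, 653 and 321 FPKM or 64.0, 56.5 and 57.2% of the gene. Pou4f1_j2 followed with 187, 335 and 234 FPKM, and Pou4f1_j1 came last with 78.5, 167 and 5.97 FPKM. Among the DRG estimates of Pou4f1_j1, only that in replicate 2 had a lower bound above 0, at 42.85. The 12.3 FPKM in CGN replicate 1 belonged to Pou4f1_j1 alone, with confidence bounds of 5.31 and 19.4. Pou4f1_j3 was called higher in DRG neurons (3.36 ± 0.72, SE, limma, adjusted p = 0.0320), a call that was lost when any 1 of the 5 libraries was left out, with adjusted p-values of 0.0655, 0.0561 and 0.0559 without DRG replicates 1, 2 and 3 and 0.175 and 0.115 without CGN replicates 1 and 2. The difference itself was between 3.14 and 3.60 in these fits. Pou4f1_j2 missed the threshold (2.57 ± 0.67, SE, limma, adjusted p = 0.0525) but was called under 7 of 15 other settings, including the 3 other scalings. Not called either was Pou4f1_j1 (1.05 ± 0.66, SE, limma, adjusted p = 0.326).

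Pou4f3, on the plus strand of chromosome 18 with 1 reference isoform (uc008etv.1), had 244 and 169 FPKM in DRG replicates 1 and 2 and was listed at 0 in DRG replicate 3 and in both CGN libraries. The confidence bounds were 206 to 282 and 50.4 to 287 in the first and second DRG library, and whether the 0 listed in the third is a low level or a failed estimate cannot be told from the table. The difference did not pass the test (1.56 ± 0.77, SE, limma, adjusted p = 0.137), and its 95% interval ran from -0.16 to 3.29. Leaving out DRG replicate 3 gave a difference of 2.34 with an adjusted p of 0.00350 (limma). That replicate was the only DRG library listed at 0, so the larger difference follows from the choice of library. Without DRG replicate 1 or 2 Pou4f3 no longer met the filter and was not tested. The difference was 1.56 without either CGN replicate.

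**Figure D2:**
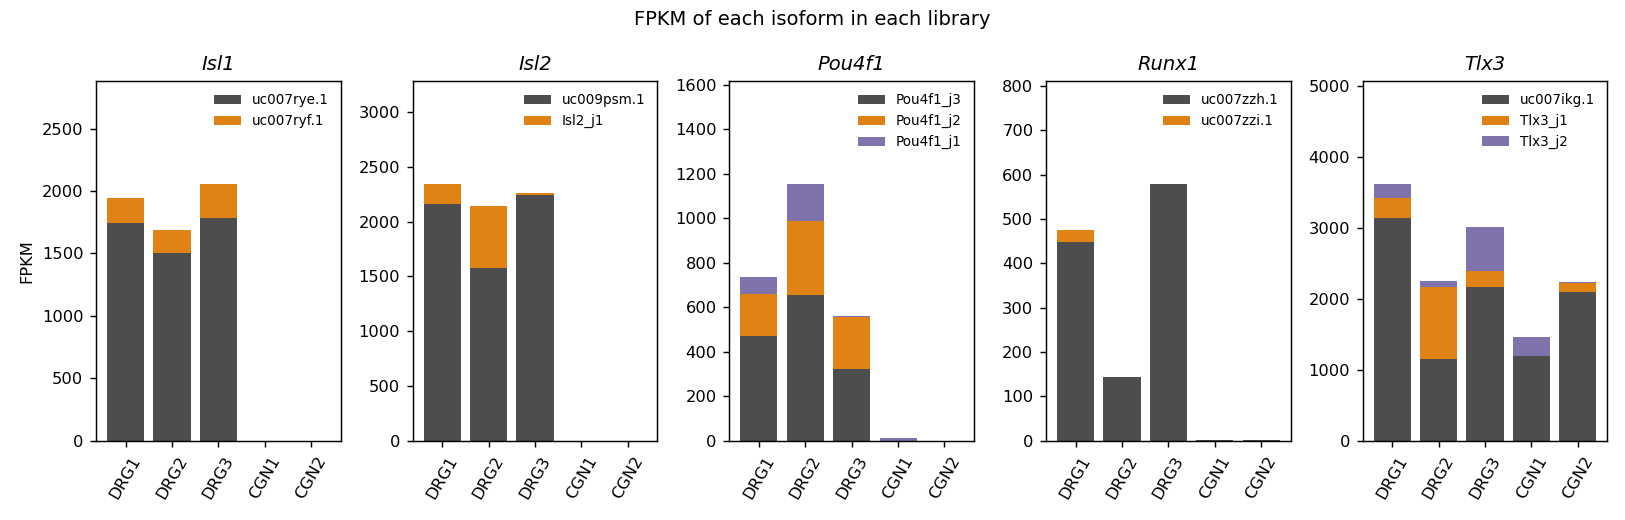
Stacked bars give the FPKM of each isoform in each library for the 5 factors with more than 1 isoform, on a linear axis from 0 that differs between panels. The split between isoforms is steady for Isl1 across DRG1 to DRG3, whereas Isl2_j1 and Tlx3_j1 take their largest part in DRG2.

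Runx1 (chromosome 16, 92601722 to 92697585, minus strand) had 476, 143 and 580 FPKM in the DRG replicates (399 ± 228, SD, n = 3) and 1.92 and 1.62 FPKM in the CGN replicates. All DRG libraries were above 50 FPKM and both CGN libraries far below it, but replicate 2 was far below the other DRG cultures. Runx1 was called higher in DRG neurons (2.95 ± 0.67, SE, limma, adjusted p = 0.00823). The call was lost without CGN replicate 1 (adjusted p = 0.0819) or without CGN replicate 2 (adjusted p = 0.0559), with the difference at 2.95 and 2.94. DRG replicate 2 also had the lowest summed fibroblast markers (38954, beside 76002 and 81034 in replicates 1 and 3) and the lowest summed Schwann and satellite glia markers (92266, beside 130582 and 145315), and the part of these cells in the Runx1 level was not tested. Runx1 is also known from blood cells. The summed macrophage markers were 673, 1513 and 412 in DRG replicates 1, 2 and 3 and 6186 and 10333 in the CGN replicates, and their part in the Runx1 level was not tested either.

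Of the reference isoforms of Runx1, uc007zzh.1 carried 94.0 to 100% of the gene in the DRG libraries, with 448, 143 and 580 FPKM. Its confidence bounds did not overlap between any pair of DRG replicates, at 408 to 487, 131 to 154 and 537 to 623. The isoform uc007zzh.1 missed the threshold by itself (2.94 ± 0.82, SE, limma, adjusted p = 0.0623) and was called under 3 of 15 other settings. The other transcript, uc007zzi.1, reached 28.6 FPKM in DRG replicate 1 and was near 0 elsewhere, so it was not tested. Gm16801, an annotated lincRNA gene on the opposite strand, overlaps Runx1, and since no use of strand is stated for the estimates, reads of the pair cannot be told apart.

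Tlx3 (chromosome 11, 33100712 to 33103626, minus strand, 3 annotated exons) had the highest level of the factors, with 3626, 2251 and 3021 FPKM in the DRG replicates (2966 ± 689, SD, n = 3), and was also high in the CGN replicates at 1468 and 2240 FPKM (1854 ± 546, SD, n = 2). Tlx3 was the only member above 50 FPKM in all 5 libraries. The lowest DRG library and the highest CGN library were almost equal, and Tlx3 stood above 68.6 to 77.0% of genes in the DRG libraries and above 72.4 to 74.2% in the CGN libraries. The difference did not pass the test (0.67 ± 0.38, SE, limma, adjusted p = 0.193), and its 95% interval ran from -0.19 to 1.52. This is close to the median of all genes, 0.59. With the libraries scaled to equal total FPKM the sign turned, at -0.26 (adjusted p = 0.297), and after quantile normalization and median ratio scaling the difference was 0.03 and 0.00. Every DRG library was above every CGN library for 5 of the 6 members, Tlx3 among them by a margin of 10.95 FPKM, as for 43.5% of all genes tested.

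The Tlx3 transcripts were 1 reference form, uc007ikg.1, and 2 assembled ones. The reference form had 3141, 1153 and 2175 FPKM in DRG and 1189 and 2101 FPKM in CGN replicates, and its share was 86.6, 51.2 and 72.0% in DRG and 81.0 and 93.8% in CGN libraries. Tlx3_j1 had 281, 1013 and 221 FPKM in DRG and 2.99 and 119 FPKM in CGN replicates. In shares, Tlx3_j1 made up 7.76, 45.0 and 7.33% of the gene in DRG and 0.204 and 5.32% in CGN replicates, so its mean rested on DRG replicate 2. Tlx3_j2 had 204, 85.4 and 624 FPKM in DRG and 276 and 20 FPKM in CGN replicates, with no group standing above the other. Its lower confidence bound was 0 in DRG replicates 1 and 2 and in CGN replicate 2, as was that of Tlx3_j1 in CGN replicate 1. The study classes estimates with such a bound as unreliable, and the Tlx3 shares rest on them in part. The mean share of the reference form was 69.9 ± 17.8% (SD, n = 3) in DRG and 87.4 ± 9.06% (SD, n = 2) in CGN libraries, a difference of -17.4 percentage points that could not be told from the spread (exact two-sided permutation over the 10 divisions of 5 libraries, p = 0.4, adjusted over the 3 isoforms 0.6, where the smallest p is 0.1). None of the Tlx3 isoforms was called in limma, with adjusted p-values of 0.734 for the reference form, 0.171 for Tlx3_j1 and 0.614 for Tlx3_j2. No isoform of Tlx3 reached an unadjusted p of 0.05 either.

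**Figure D3:**
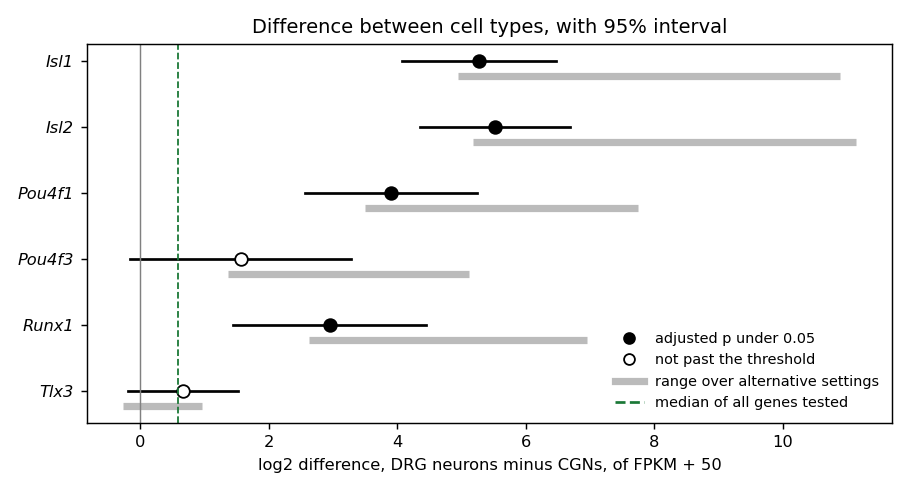
For each factor the point and black line give the log2 difference (DRG neurons minus CGNs, of FPKM + 50) with its 95% interval from limma, filled where the adjusted p is under 0.05, and the grey bar gives the range over all alternative settings, which include smaller pseudocounts. The intervals of Pou4f3 and Tlx3 include 0, and the point for Tlx3 lies beside the dashed line at 0.59, the median of all genes tested.

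Within DRG cultures the factors could be ordered by FPKM, a level per length of transcript. Tlx3 stood first, Isl2 next and Isl1 after it in each of the 3 libraries. The ranges of Tlx3 (2251 to 3626) and Isl2 (2143 to 2345) overlapped, whereas Isl2 and Isl1 (1684 to 2058) did not, nor did Isl1 and Pou4f1 (561 to 1154). Lower down, Pou4f1 overlapped with Runx1 (143 to 580), and Runx1 with Pou4f3 (0 to 244). In CGNs Tlx3 alone had a level above 50 FPKM.

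Genes with the most similar levels were found by the Euclidean distance of the 5 log2(FPKM + 50) values, and 3 are named for each factor. For Isl1 these were Hoxa9 (distance 0.198), Raet1d (0.236) and Hoxd8 (0.239). Nearest to Isl2 were Cmbl (0.125), a gene listed only under a clone name (0.312) and again Hoxd8 (0.362). Both Hox genes, homeobox genes of axial patterning, were listed at 0 in each CGN library like the Isl genes themselves. The Pou4f1 levels were closest to 1700129I04Rik (0.325), Hoxa5 (0.412) and Glyat (0.460), which share its peak in DRG replicate 2. Runx1 was nearest to Pilra (0.179), Gsdm1 (0.456) and Bnc2 (0.508), all lowest of the DRG libraries in replicate 2. The Pou4f3 pattern recurred in BC055944 (0.0937), AK030561 (0.172) and Expi (0.202), each near 0 in DRG replicate 3. Tlx3 was closest to Ssbp4 (0.188), Rnpep (0.210) and mKIAA0842 (0.247), each between 1457 and 3797 FPKM in every library.

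Factors that act beside or before these members in sensory neurogenesis were called in both directions. Of 27 such genes 20 were listed and 16 tested, of which 9 were called higher in DRG neurons, 4 lower and 3 did not pass, beside 28.4% higher and 9.22% lower over all genes tested. Their median log2 difference was 2.02, beside 0.59 for all genes. Prrxl1 (Drgx), a paired homeodomain factor of DRG and dorsal horn neurons, had 5913, 7906 and 4544 FPKM in DRG libraries and was listed at 0 in CGN libraries (log2 difference 6.91 ± 0.48, SE, limma, adjusted p = 2.71e-05). Prdm12, required for nociceptors, was likewise between 4032 and 4736 FPKM in DRG and at 0 in CGN libraries (6.45 ± 0.47). Tlx2, the paralogue of Tlx3, differed by 4.58 ± 0.55. Tlx2 had 998 to 1257 FPKM in DRG libraries and was listed at 0 in both CGN libraries, where Tlx3 was at 1468 and 2240. Lower in DRG neurons were Neurod6 (-5.79 ± 0.57), a bHLH factor of central neurons, Insm1 (-4.29 ± 0.64), a zinc-finger factor of newly formed neurons, Etv4 (-2.18 ± 0.69) and Prdm8 (-1.90 ± 0.63). The calls of Etv4 and Prdm8 were lost without DRG replicate 2 and without either CGN replicate, with adjusted p-values of up to 0.219 and 0.188 over all settings. With reference isoforms only, Etv4 turned to 1.24 and was not called. The number called higher was 5 without CGN replicate 1. The number lower was 1 without either CGN replicate, where Neurod6 no longer met the filter, and Neurod6 was called under each of the 14 settings that tested it.

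Among the few relatives and cofactors of the Isl genes that were tested, calls went in both directions. Of 16 genes of the LIM family and its cofactors 7 were listed and 6 tested, with 2 called higher, 2 lower and 2 not called. Over all genes tested 28.4% were called higher and 9.22% lower, and 6 genes are too few to compare with these shares. Lmo1, a LIM-only protein, was at 687 to 1144 FPKM in DRG and at 49.2 and 81.2 in CGN libraries (3.09 ± 0.56, SE, limma, adjusted p = 0.00288). Ldb2, a LIM-domain-binding cofactor of LIM-homeodomain proteins, was also higher (2.83 ± 0.60, adjusted p = 0.00610). Lhx1, a LIM-homeodomain gene known from Purkinje cells, was listed at 0 in all DRG libraries and at 761 and 1893 FPKM in CGN libraries (-4.65 ± 0.61, adjusted p = 0.000502). Lmo2 was lower (-2.10 ± 0.73, adjusted p = 0.0484), a call lost without DRG replicate 3 and without either CGN replicate, with an adjusted p of up to 0.270 over all settings. The median of the list was 0.06 and turned negative, to between -0.61 and -0.89, under the 3 other scalings. Lhx1 was not tested without either CGN replicate, as it no longer met the filter, and was called under each of the 14 settings that tested it.

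Other POU genes were too few to describe as a group. Of 12 genes 4 were listed and 3 tested, of which 0 were called higher by limma (also 0 before adjustment) and 2 lower, with a median of -2.22. With 28.4% of all genes called higher, a count of 0 among 3 is near the background. Pou2f2, an octamer-binding factor, had 0, 30.9 and a value near 0 in DRG and 378 and 1180 FPKM in CGN libraries (-3.63 ± 0.65, SE, limma, adjusted p = 0.00266). Pou6f1 was at 1235 to 1592 FPKM in DRG and at 5569 and 8279 in CGN libraries (-2.22 ± 0.35, adjusted p = 0.00141). Without either CGN replicate Pou2f2 no longer met the filter and was not tested, which left 1 gene called lower, and it was called under each of the 13 settings that tested it.

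The partner shared by all RUNX proteins was much higher in the DRG cultures. Of 12 genes in the list, holding Runx2, the subunit Cbfb and corepressors, 11 were listed and tested. By limma 2 were called higher, 9 did not pass and 0 were lower (2 lower before adjustment). Over all genes tested 28.4% were called higher and 9.22% lower. The median of the list was -0.29, beside 0.59 for all genes. Cbfb, the subunit that stabilises RUNX proteins on DNA, had 16320, 19746 and 9571 FPKM in DRG and 958 and 1911 FPKM in CGN libraries (3.38 ± 0.43, SE, limma, adjusted p = 0.000415). Its groups did not overlap, and unlike Runx1 it was highest in DRG replicate 2. Runx2, the RUNX gene of bone, had 314, 431 and 461 FPKM in DRG and 70.6 and 51.2 FPKM in CGN libraries (2.02 ± 0.57, adjusted p = 0.0212). The Runx2 call was lost without either CGN replicate, leaving 1 gene called higher, and its highest adjusted p over all settings was 0.0937. The number lower was 4 under each of the other scalings and 1 without any 1 of the DRG libraries or CGN replicate 1.

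Genes of sensory neuron function, known as targets or marks of the classes that these factors specify, formed the last list. Of 21 genes 18 were listed and 15 tested, with 10 called higher in DRG neurons, 1 lower and 4 not passing, beside 28.4% higher and 9.22% lower over all genes tested. The median log2 difference was 4.41. P2rx3, the ATP-gated channel of non-peptidergic nociceptors, had 97236 to 129317 FPKM in DRG and 41.0 and 70.2 in CGN libraries (log2 difference 10 ± 0.33, SE, limma, adjusted p = 5.34e-07). Avil, which encodes the actin-binding protein advillin, differed by 8.43 ± 0.35, Trpv1, the capsaicin receptor, by 7.05 ± 0.44 and Gal, the neuropeptide galanin, by 6.32 ± 0.41. Trpv1 was listed at 0 in both CGN libraries. Pvalb, a calcium-binding protein of proprioceptors and of Purkinje cells and interneurons of the cerebellum, was listed at 0 in all DRG libraries and at 945 and 1116 FPKM in CGN libraries (-4.43 ± 0.55, adjusted p = 0.000378). The number lower was 2 under each of the other scalings and 0 without either CGN replicate, where Pvalb was no longer tested.

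**Figure D4:**
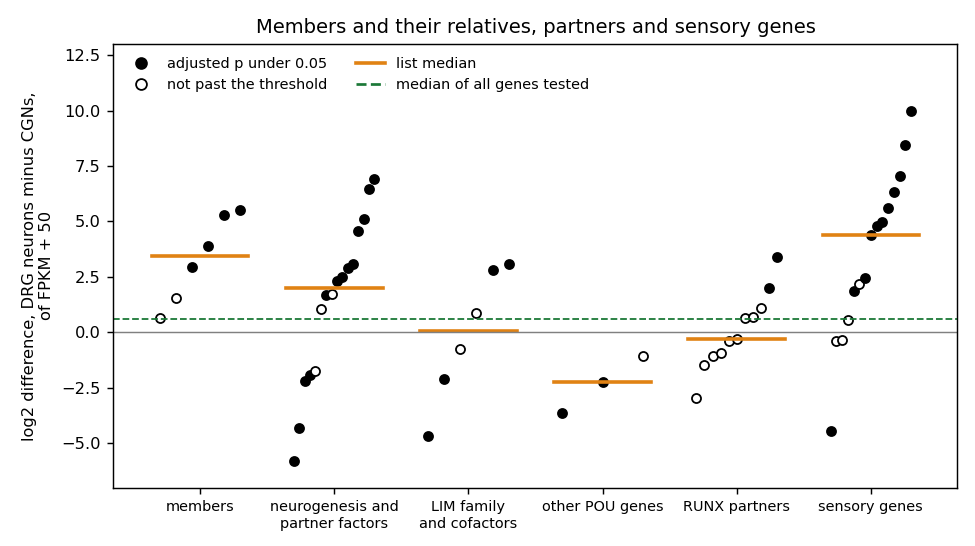
Each point is a tested gene of the named list, placed by its log2 difference (DRG neurons minus CGNs, of FPKM + 50) and filled where the adjusted p is under 0.05, with list medians in orange and the median of all genes tested, 0.59, as a dashed line. The members' median is 3.42 and that of the sensory genes 4.41, whereas the other POU genes lie below 0.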

How the data were processed

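RNA of 3 DRG and 2 CGN cultures was sequenced as polyadenylated RNA. The authors used TopHat (mm9) for alignment, Cufflinks for assembly and Cuffdiff for FPKM scaled by the upper quartile, and they deposited FPKM per library with 95% confidence bounds. The deposited grouped FPKM and the columns of the authors' comparison (fold change, p-value, test status and call) were not used. Upper-quartile scaling left totals that differed between libraries, so other scalings were tried. Spans are those of the deposited mm9 table, and starts and sequences come from RefSeq (GRCm38.p6) by exact match to NCBIM37.

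FPKM was summed per gene, and log2(FPKM + 50) was fitted with limma 3.58.1 (empirical Bayes with trend, no block) in R 4.3.3 over all 5 libraries, for genes and isoforms at 50 FPKM or more in at least 2 libraries. Fold changes are on the log2(FPKM + 50) scale, which understates the change of low genes. Shares used an exact permutation test. The script was first tested on simulated data. Tables and figures were made with Python 3.11.15, pandas 2.3.3 and matplotlib 3.10.9. All members and their isoforms were named, with up to 4 genes of each list with the largest called change in each direction, and the 3 nearest genes by distance. Some genes that met this rule are not reported here. The members and lists were chosen with earlier results of these data known. Other settings tried were a pseudocount of 1 or 10, 100 FPKM in 2 libraries, no filter, 3 other scalings, limma with a robust prior or no trend, a replicate block, reference isoforms only, and each library left out. Leaving out libraries for the list counts was added after the data were seen.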

Additional observations from a re-analysis of the deposited data

How the results depend on the processing

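At gene level 4 members were called higher in DRG neurons under the 9 alternatives of pseudocount, filter, scaling and prior. The count was 5 with a replicate block, 3 with reference isoforms only, where Pou4f1 has no isoform, and 3 to 5 with a library left out. Isl1, Isl2 and Pou4f1 were called wherever tested. Isoforms of the members were called in 3 cases, but in 6 with a pseudocount of 1 or 10 or without trend, in 5 with 100 FPKM in 2 libraries, the 3 other scalings or the replicate block, and in 2 with any library left out. The numbers pair no cultures, since replicate 1 minus 2 in DRG neurons and in CGNs correlated at -0.0086 over 13275 genes. The block raised Pou4f3 to 2.34 (adjusted p = 0.0174) at gene level. It called 2444 of all genes higher, against 3775. Over all genes, the number higher was 2288 at equal total FPKM and 2233 to 4535 with a library left out. The number lower was 1224, and became 2810 after quantile normalization, 3459 at equal total FPKM, 2747 after median ratio scaling, 668 with reference isoforms only and 359 to 1330 with a library left out. Isoforms called higher numbered 3233, and 2069 without the filter and 591 to 3935 with a library left out, lowest without DRG replicate 1. Tlx3 turned to -0.26 at equal total FPKM. Its reference isoform turned from 0.32 to -0.37 (quantile), -0.60 (equal total) and -0.15 (median ratio) and ran from -0.074 to 0.72 with a library left out, and Tlx3_j2 ran from -0.20 to 2.03 around 0.92, none of them called. The difference in Tlx3 shares ranged with a library left out from -25.8 to -8.06 points for the reference form, 4.78 to 23.6 for Tlx3_j1 and -8.80 to 9.13 for Tlx3_j2. List counts with a library left out were 5 to 9 higher and 1 to 5 lower for neurogenesis factors, 0 to 2 lower for the LIM list, 1 to 2 lower for POU genes, 1 to 3 higher and 0 to 1 lower for RUNX partners and 0 to 1 lower for sensory genes. Without a CGN library Neurod6, Lhx1, Pou2f2 and Pvalb were not tested. At equal total FPKM 1 RUNX partner was higher. RUNX partners lower numbered 4 and sensory genes lower 2 under each other scaling. Apart from fewer libraries or isoforms, the cause of these changes was not tested. Depth per value is unknown, which limits levels below 50 FPKM.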
